A study of Mus musculus with 6 samples.

Results

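The genes described are the core of the inflammasome and pyroptosis machinery of mouse macrophages. The 10 members are named by symbol: the sensors Nlrp3, Nlrc4, Naip5 and Nlrp1b, the kinase Nek7, the adaptor Pycard, the caspases Casp1 and Casp4, the pore-forming Gsdmd and the membrane-rupturing Ninj1. All 10 were found among the 55401 genes of the deposited table. They were measured by RNA sequencing in RAW264.7 cells, a wild-type mouse macrophage-like line. There were 3 libraries of cells given molybdenum disulfide (MoS2, a layered metal sulfide) at 6.25 µg/ml and 3 libraries of cells given phosphate-buffered saline (PBS). No source used here states how long the cells were exposed, or whether the 3 libraries of a group came from separate cultures. The p-values thus cover the spread among these libraries, which may be technical only. The line is an immortal one from a BALB/c mouse, while the mouse reference genome is from C57BL/6J, and the effect of strain differences in polymorphic genes such as Nlrp1b and Naip5 was not tested.

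Inflammasomes are cytosolic complexes in which a sensor, directly or through the adaptor ASC (the product of Pycard), activates caspase-1. Active caspase-1 matures the cytokine products of Il1b and Il18 and cuts gasdermin D, whose freed N-terminal part forms pores in the plasma membrane. Mouse Casp4, also known as caspase-11, is activated by cytosolic lipopolysaccharide and cuts gasdermin D as well, and NINJ1 then tears the membrane in the last step of lytic death. The RAW264.7 line is known for making little or no ASC.

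Depth was similar between groups, at 15767618 to 18412762 counts per MoS2 library and 17008020 to 17695883 per PBS library. The 10 most abundant genes took 18.9% to 19.6% of counts in the MoS2 libraries and 5.25% to 5.64% in the PBS libraries. Levels are given as CPM, the counts of a gene relative to its library's total. They were corrected with TMM factors (trimmed mean of M values), which align the bulk of genes. The factors were 0.743 to 0.783 for the MoS2 libraries and 1.305 to 1.310 for the PBS libraries. Whether the bulk of genes was truly unchanged was not tested. Scaled by library totals alone, the log2 fold changes shift by a median of -0.77, and wherever that turns a direction of a named gene it is stated. The 9 macrophage markers were all above the low-count filter, with a summed level of 4401 to 4541 CPM with MoS2 and 6797 to 6859 CPM with PBS. Of these 9, 2 were called higher and 5 lower (2 and 7 with library totals). Itgam and Cd68 rose, with log2 fold changes of 1.47 and 1.09, and Csf1r, Lyz2, Fcgr1, Spi1 and Mrc1 fell, with -1.90, -0.87, -1.06, -0.42 and -3.14. Adgre1, which encodes F4/80, and Ptprc were not called, at 0.07 and 0.03, and library totals put them at -0.71 and -0.74. The part of such changes in the results for the members was not tested. Lymphocyte, neutrophil, fibroblast and epithelial markers summed to at most 0.731 CPM per list in every library, and among those at 0 counts in all 6 libraries were Mpo, S100a9, Cd8a, Trac, Ms4a1, Col3a1, Krt18 and Cdh1. In bulk RNA, fewer cells that express a gene and less RNA per cell cannot be told apart.

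The sensor genes and Nek7 were lower with MoS2, the caspases and Ninj1 were higher with TMM scaling, Gsdmd was not called, and Pycard was hardly detected. The test was edgeR's quasi-likelihood F test with a Benjamini-Hochberg adjusted p under 0.05 over all 12972 genes that passed the low-count filter, and log2 fold changes are MoS2 over PBS. Of the 10 members 9 passed that filter, each with at least 24 counts in every library. Of these 9, 5 were called lower and 3 higher. Across all tested genes 42.4% were called lower, 38.3% higher and 80.7% in either direction, so the share of members called is near the background. The groups did not overlap for 8 of the 9, against 81.9% of all tested genes. What can be read from the members is the size of each change. Their median log2 fold change was -0.54, and that of all tested genes was -0.08.

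**Figure D1:**
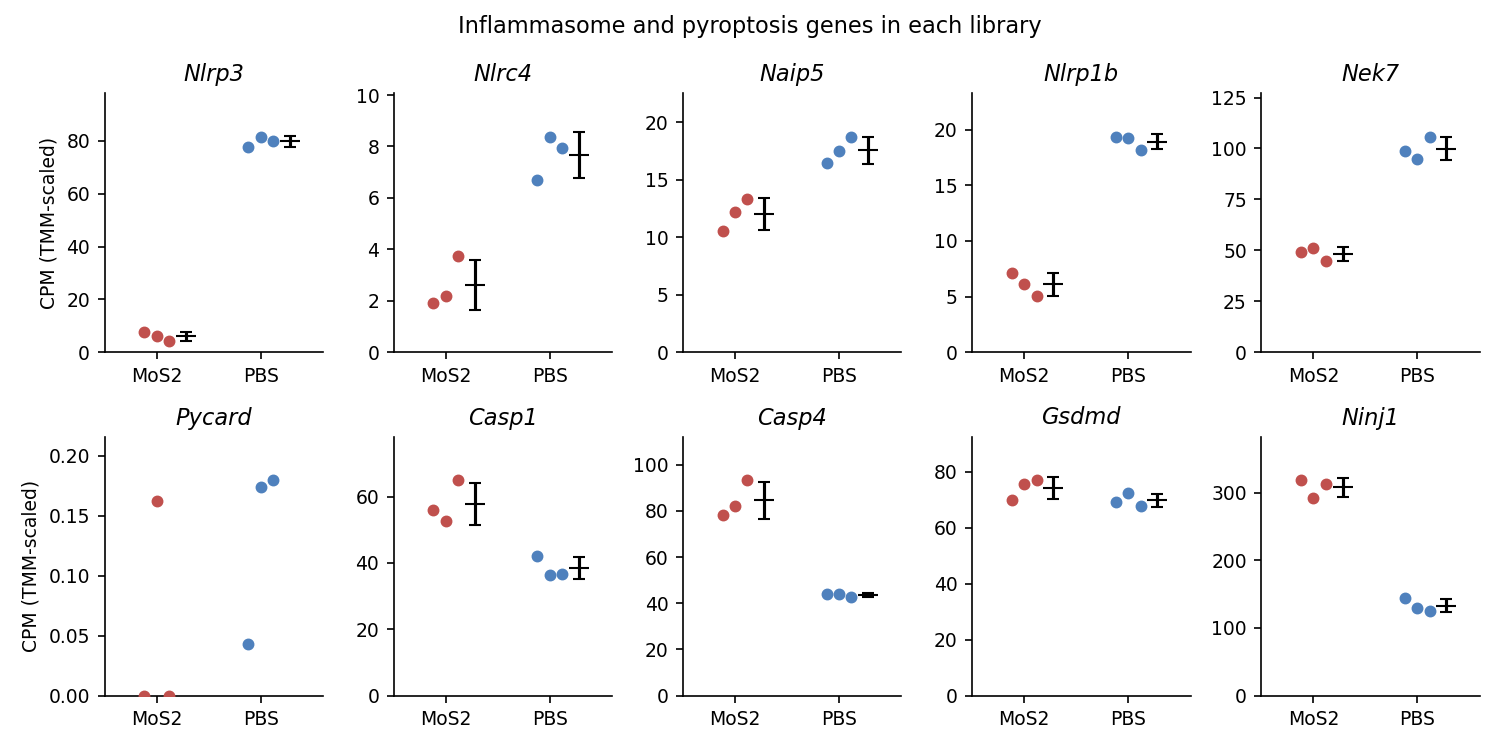
TMM-scaled CPM of the 10 member genes, 1 panel per gene with its own axis from 0, MoS2 libraries on the left (red) and PBS libraries on the right (blue); points are libraries and bars beside them are mean ± SD of 3 (not drawn for Pycard, which had 0 to 4 counts per library). Nlrp3, Nlrc4, Naip5, Nlrp1b and Nek7 lie lower in all 3 MoS2 libraries, Casp1, Casp4 and Ninj1 lie higher, and Gsdmd overlaps.

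Nlrp3 encodes the sensor that responds to many kinds of cell damage, potassium efflux among them (ENSMUSG00000032691.14, GRCm38 chromosome 11, 59541568 to 59566956). It had 7.51, 6.16 and 4.32 CPM in the MoS2 libraries, against 77.7, 81.6 and 80.1 CPM in the PBS libraries. The groups are far apart, with every MoS2 library under 8 CPM and every PBS library above 77. Its log2 fold change was -3.74 ± 0.13 (SE, edgeR adjusted p = 1.4e-11), and 232 of the 12972 tested genes, itself included, fell at least as far. Over 16 alternative settings it ranged from -4.51 to -3.54.

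The promoter of Nlrp3 is shown because this gene fell most, with the promoter of Nlrp1b, another sensor that fell, and those of Casp4 and Ninj1, which rose. Each is the stretch of 250 bases before the RefSeq start site (GRCm38.p6), read 5′ to 3′. Capitals mark matches, on either strand, to a loose kappa B pattern (3 G, any 5 bases and 2 C) or to GAGGAAGT. The first is wider than the kappa B motif of NF-kB, and the second is the motif of the macrophage factor PU.1. Overlapping matches run together.
Nlrp3 (chr11:59541319-59541568, plus strand): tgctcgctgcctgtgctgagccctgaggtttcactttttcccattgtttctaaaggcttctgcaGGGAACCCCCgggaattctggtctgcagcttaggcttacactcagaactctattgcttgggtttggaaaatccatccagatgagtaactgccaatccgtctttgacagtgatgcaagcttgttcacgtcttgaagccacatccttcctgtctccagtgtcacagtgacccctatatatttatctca
Nlrp1b (chr11:71230734-71230983, minus strand): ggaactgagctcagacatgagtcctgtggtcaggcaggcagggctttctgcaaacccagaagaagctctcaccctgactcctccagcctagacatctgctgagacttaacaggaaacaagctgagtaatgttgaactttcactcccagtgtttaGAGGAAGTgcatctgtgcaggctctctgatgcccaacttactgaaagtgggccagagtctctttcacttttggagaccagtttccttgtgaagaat
Casp4 (chr9:5308599-5308848, plus strand): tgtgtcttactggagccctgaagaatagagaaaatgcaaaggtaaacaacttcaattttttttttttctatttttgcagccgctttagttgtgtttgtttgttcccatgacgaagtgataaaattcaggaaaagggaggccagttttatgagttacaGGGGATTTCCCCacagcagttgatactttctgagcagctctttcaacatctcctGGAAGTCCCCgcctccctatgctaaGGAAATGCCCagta
Ninj1 (chr13:49187279-49187528, plus strand): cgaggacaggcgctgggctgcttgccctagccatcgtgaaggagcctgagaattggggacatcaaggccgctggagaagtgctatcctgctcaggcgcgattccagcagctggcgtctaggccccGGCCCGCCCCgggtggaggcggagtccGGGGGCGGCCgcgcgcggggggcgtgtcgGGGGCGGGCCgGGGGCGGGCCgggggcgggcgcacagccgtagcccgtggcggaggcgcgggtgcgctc

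Of the 9 members with an entry in the RefSeq promoter table (Gsdmd has none), 6 matched the loose kappa B pattern. So did 45.8% of all 32851 promoters in the table, and a match is not by itself an NF-kB motif. The 6 members were Nlrp3, Naip5 and Nek7, which fell, and Casp1, Casp4 and Ninj1, for which the TMM-scaled values were higher. Casp4 had 5 matches, of which 3 overlap in a single stretch at 93 to 82 bases before the start. The 4 matches of Ninj1 hold only G and C and lie in a promoter of 76.0% G and C. The PU.1 motif was found in Nlrp1b and Pycard, and in 2.44% of all promoters. The motif of AP-1 (TGANTCA, 6.75% of all promoters) and that of interferon regulatory factors (GAAA, any 2 bases and GAAA again, 2.98%) had no match in the 9 windows, and the E-box CACGTG (6.02%) was found in Casp1. The start sites used for Naip5 and Nek7 lie 1013 and 384 bases from the 5′ end of the gene in GENCODE. These matches describe letters in a window and not binding.

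Nlrc4 encodes the adaptor-like sensor that oligomerizes once a NAIP protein has bound its bacterial ligand (ENSMUSG00000039193.9, GRCm38 chromosome 17, 74425438 to 74459142). It was lowly expressed, at 1.92, 2.19 and 3.73 CPM in the MoS2 libraries and 6.68, 8.38 and 7.95 CPM in the PBS libraries. The third MoS2 library had the highest value of its group, but still lay below each PBS library. The log2 fold change was -1.54 ± 0.23 (SE, edgeR adjusted p = 2.6e-05), and it ran from -1.89 to -1.36 as each library was left out in turn.

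Naip5, whose product binds bacterial flagellin and engages NLRC4 (ENSMUSG00000071203.6, GRCm38 chromosome 13, 100211739 to 100246323), had the smallest fall. It had 10.54, 12.2 and 13.3 CPM in the MoS2 libraries and 16.4, 17.5 and 18.7 CPM in the PBS libraries. The groups do not overlap, but the gap between them is only a few CPM. The log2 fold change was -0.54 ± 0.12 (SE, edgeR adjusted p = 8.0e-04). With each library's trend on gene length removed it was -0.25, no longer past the threshold (edgeR adjusted p = 0.0536). Of the stretches of read length (150 bases) in annotated Naip5 transcripts, 8.25% also occur in transcripts of Naip1, Naip3 or Naip6, so a part of its reads cannot be assigned by sequence. No such shared stretch was found for the other 9 members.

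Nlrp1b encodes a sensor cut by the anthrax lethal factor protease and freed by inhibition of the dipeptidases DPP8 and DPP9 (ENSMUSG00000070390.12, GRCm38 chromosome 11, 71153102 to 71230733). It had 7.11, 6.16 and 5.05 CPM in the MoS2 libraries and 19.4, 19.2 and 18.2 CPM in the PBS libraries. Every MoS2 library was below every PBS library by a wide margin. The log2 fold change was -1.64 ± 0.14 (SE, edgeR adjusted p = 6.6e-08). Its neighbour and paralogue Nlrp1a had 7 counts in all MoS2 libraries and 55 in all PBS libraries. Its change, -2.10 ± 0.64 on the log2 scale (edgeR adjusted p = 0.00765), was -2.74 without MoS2 replicate 2.

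The 4 sensor genes fell by different amounts, so their mixture differed between the groups. Per kilobase of exon, which allows levels of different genes to be compared, they summed to 5.30 ± 0.102 CPM per kilobase with MoS2 and 27.6 ± 0.785 with PBS (SD, n = 3 each). Nlrp3 made up 27.8% ± 6.94 of that sum with MoS2 and 71.2% ± 0.349 with PBS. Naip5 made up 43.6% ± 5.88 with MoS2 and 12.2% ± 0.625 with PBS. These shares do not depend on library scaling. In the MoS2 libraries Naip5 was therefore the most abundant of the 4 sensor transcripts, and in the PBS libraries it was Nlrp3.

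**Figure D2:**
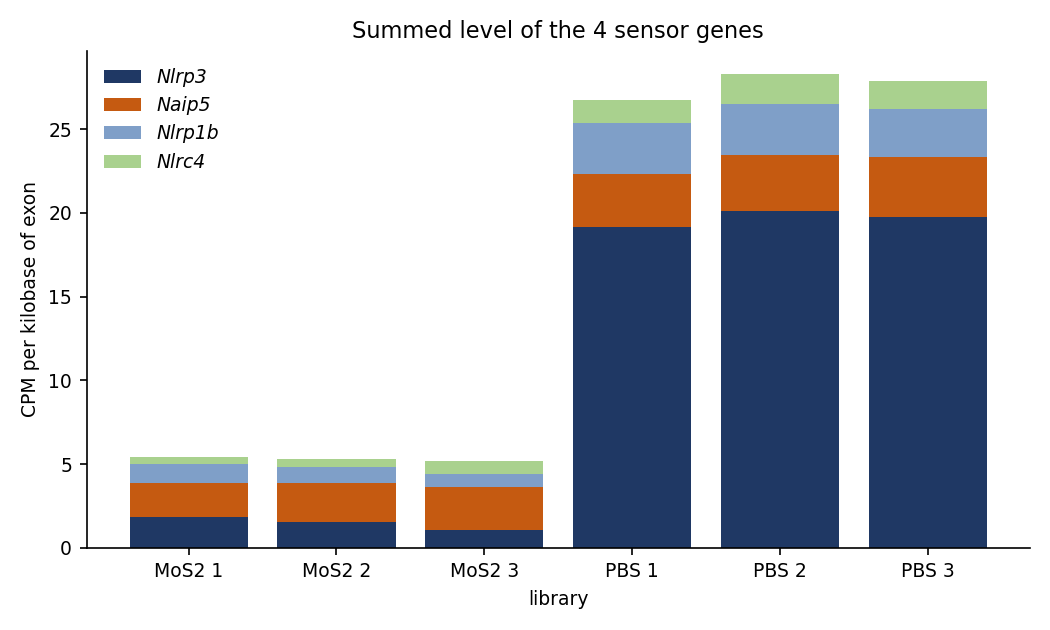
Stacked levels of the 4 sensor genes in each library, in TMM-scaled CPM per kilobase of exon, with the 3 MoS2 libraries on the left and the 3 PBS libraries on the right; each colour is 1 gene. The summed level is 5.20 to 5.40 in the MoS2 libraries and 26.8 to 28.3 in the PBS libraries, and most of the difference is Nlrp3.

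Nek7 encodes a kinase that binds NLRP3 and is needed for its assembly (ENSMUSG00000026393.10, GRCm38 chromosome 1, 138482875 to 138620141). It had 49.0, 51.2 and 44.5 CPM in the MoS2 libraries and 99.0, 94.9 and 105.8 CPM in the PBS libraries. The MoS2 values lie far below the PBS values and do not overlap with them. The log2 fold change was -1.05 ± 0.08 (SE, edgeR adjusted p = 1.6e-08). Within a library, where scaling cancels, the log2 ratio of Nek7 to Nlrp3 per kilobase was 2.18 ± 0.331 with MoS2 and -0.54 ± 0.0952 with PBS (SD, n = 3 each). The difference of 2.72 had an exact two-sided permutation p = 0.1, the smallest that 3 against 3 libraries can give. It is 1 of 3 such ratios tested, each with this p before and after Benjamini-Hochberg adjustment. Per kilobase, Nek7 stood above Nlrp3 in every MoS2 library and below it in every PBS library.

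Pycard, the ASC gene (ENSMUSG00000030793.4, GRCm38 chromosome 7, 127989708 to 127993867), was below the filter and not tested. It had 0, 2 and 0 counts in the MoS2 libraries and 1, 4 and 4 counts in the PBS libraries. The ratio of its levels was 0.394 with an exact 95% counting interval of 0.0414 to 1.90, which includes equal levels and covers counting error only. A difference was not detectable at this depth. The gene overlaps 485 exonic bases of Gm45205 on the other strand, and no source used here gives the strand setting of the counting, so even these few reads are uncertain. For comparison, Nlrp3 had 94, 76 and 59 counts with MoS2 and 1791, 1880 and 1783 with PBS, and no ratio to Pycard was computed because Pycard had 0 counts in some libraries.

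The inflammatory caspases lie side by side on chromosome 9 and are on the same strand. Casp1 encodes the effector protease of the canonical inflammasome (ENSMUSG00000025888.6, GRCm38 chromosome 9, 5298508 to 5307290). It had 55.9, 52.6 and 65.0 CPM in the MoS2 libraries and 42.2, 36.4 and 36.8 CPM in the PBS libraries. The groups do not overlap, and the log2 fold change with TMM factors was 0.59 ± 0.09 (SE, edgeR adjusted p = 4.7e-05), but with library totals it was -0.19 and not called (edgeR adjusted p = 0.0632). The direction of Casp1 therefore depends on the scaling. It is the one member whose entry in the table differs from GENCODE M21, so its level per kilobase rests on the exon length in the table.

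Casp4 (ENSMUSG00000033538.13, GRCm38 chromosome 9, 5308828 to 5336783) had 78.0, 82.3 and 93.3 CPM in the MoS2 libraries and 43.9, 44.2 and 42.8 CPM in the PBS libraries. All 3 MoS2 libraries stand well above the PBS libraries. Its log2 fold change was 0.96 ± 0.08 (SE, edgeR adjusted p = 5.7e-08), and with library totals it was 0.18 and still called (edgeR adjusted p = 0.0357). The log2 ratio of Casp1 to Casp4 per kilobase within a library was -0.31 ± 0.0853 with MoS2 and 0.06 ± 0.115 with PBS (SD, n = 3 each). This difference of -0.36 does not depend on scaling, and its exact two-sided permutation p = 0.1 is the smallest possible. The ratio was lower in every MoS2 library than in any PBS library.

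Gsdmd, the gene of the pore-forming gasdermin D (ENSMUSG00000022575.5, GRCm38 chromosome 15, 75862327 to 75867408), had 69.7, 75.6 and 76.9 CPM in the MoS2 libraries and 69.0, 72.2 and 67.9 CPM in the PBS libraries. The groups overlap. The log2 fold change was 0.09 ± 0.07 with a 95% interval of -0.05 to 0.22 (edgeR adjusted p = 0.248). With library totals it was -0.68 and called lower (edgeR adjusted p = 6.0e-07), and in the other 15 alternatives it was not called.

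Ninj1 (ENSMUSG00000037966.15, GRCm38 chromosome 13, 49187485 to 49196244) was the most abundant member per kilobase in both groups. It had 318.6, 291.6 and 313.1 CPM in the MoS2 libraries and 143.8, 129.6 and 125.7 CPM in the PBS libraries. Each MoS2 library had more than 2 times the level of each PBS library. The log2 fold change was 1.21 ± 0.07 (SE, edgeR adjusted p = 1.4e-09), and with library totals it was 0.44 and called (edgeR adjusted p = 3.8e-05). The log2 ratio of Ninj1 to Gsdmd per kilobase was 2.65 ± 0.1251 with MoS2 and 1.53 ± 0.113 with PBS (SD, n = 3 each), a difference of 1.12 with the smallest possible exact two-sided permutation p = 0.1. Of the tested genes 15.5% rose at least as far as Ninj1, against 1.79% that fell at least as far as Nlrp3.

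**Figure D3:**
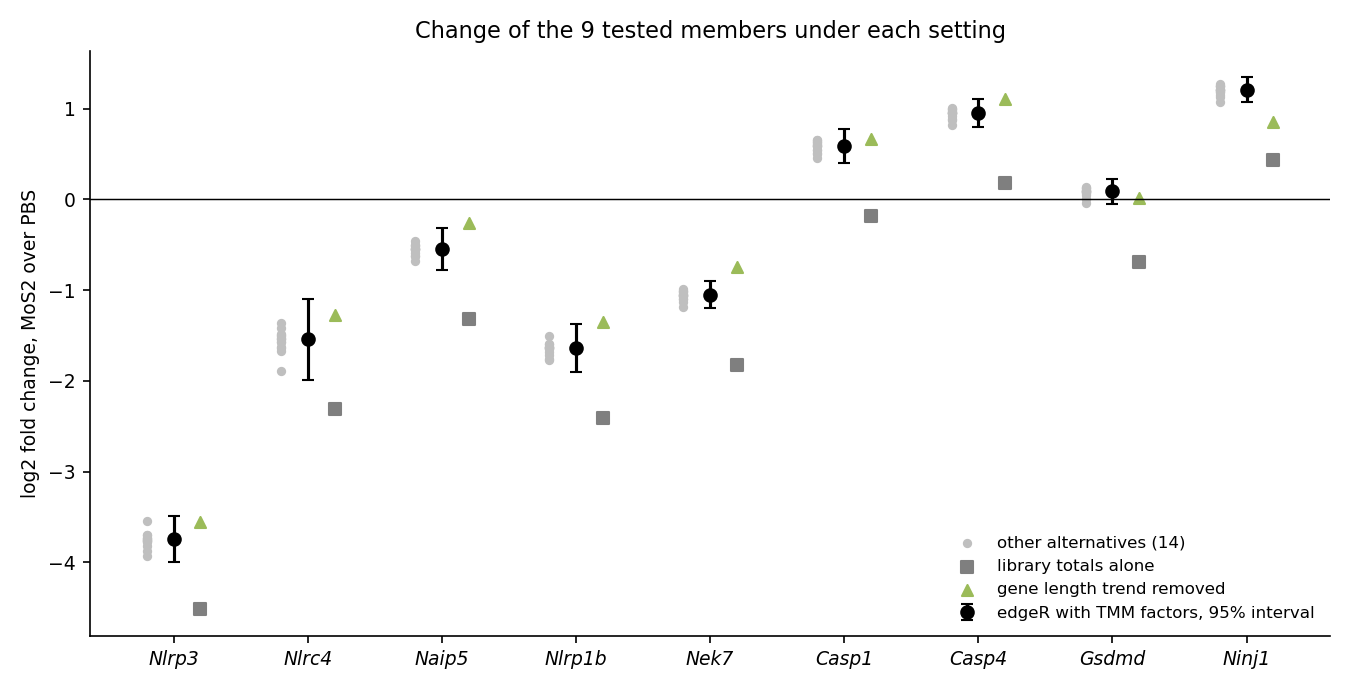
Log2 fold change (MoS2 over PBS) of the 9 tested members, with black circles for edgeR with TMM factors and their 95% intervals, grey squares for library totals alone, green triangles with the trend on gene length removed and light grey points for the other 14 alternatives. Nlrp3, Nlrc4, Naip5, Nlrp1b and Nek7 stay below 0 and Casp4 and Ninj1 above 0 in every setting drawn, while library totals put Casp1 at -0.19 and Gsdmd, otherwise near 0, at -0.68.

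The order of the members by level per kilobase changed with treatment. With MoS2 the order was Ninj1 (196.0 CPM per kilobase), Gsdmd (31.2), Casp4 (22.8), Casp1 (18.4), Nek7 (6.54), Naip5 (2.31), Nlrp3 (1.48), Nlrp1b (0.968), Nlrc4 (0.543) and Pycard (0.0142). Only Nlrp3 and Nlrp1b, among neighbours in that order, overlapped between libraries. With PBS it was Ninj1 (84.8), Gsdmd (29.3), Nlrp3 (19.7), Nek7 (13.5), Casp1 (12.3), Casp4 (11.8), Naip5 (3.37), Nlrp1b (3.002), Nlrc4 (1.596) and Pycard (0.0348). There Nek7 overlapped with Casp1, and Casp1 with Casp4. By these levels, Nlrp3 stood in the third place with PBS and in the seventh with MoS2. The place of Casp1 rests on its deposited exon length of 3136 bases. Its transcripts in GENCODE M21 hold only 1348 distinct stretches of 150 bases. With a shorter length Casp1 would stand higher, and the places and overlaps of its neighbours could change.

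The genes whose profile over the 6 libraries was nearest to that of Nlrp3 were Zfp316, Ap5b1 and Cebpa, out of 9325 protein-coding candidates averaging 5 CPM or more. Their root mean square differences from Nlrp3 on the log2(CPM + 0.5) scale, after centring on the PBS mean, were 0.147, 0.172 and 0.180. Cebpa, the gene of a myeloid transcription factor, had 1.88 CPM with MoS2 and 31.5 CPM with PBS. Among the genes nearest to Ninj1 were Hnrnpdl and Ap1s1, with differences of 0.0121 and 0.0249. With 2 groups of 3, such likeness reflects mainly a similar fold change.

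Other genes of the pathway were described in 8 lists with 74 matched genes, of which 57 were tested, 22 were called higher and 22 lower. Over all tested genes 38.3% were called higher and 42.4% lower, so these counts are near the background. With library totals the lists had 10 higher and 40 lower, against 18% higher, 67.7% lower and 85.7% in either direction of all tested genes.

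The list of other sensors and NAIP genes also holds Nlrx1 and Nlrc3, which are not established inflammasome sensors. Of its genes, 5 of 7 tested were called lower and 1 higher. With library totals 6 were lower and 0 higher. Their median log2 fold change was -2.06. Nlrx1, a mitochondrial member of the NLR family, had 4.28 ± 0.676 CPM with MoS2 and 26.01 ± 2.103 CPM with PBS (log2 fold change -2.60, edgeR adjusted p = 6.3e-10). Naip6 and Naip2, relatives of Naip5 (Naip2 recognizes the inner rod of bacterial secretion systems), had log2 fold changes of -2.06 ± 0.14 and -1.40 ± 0.11. Nlrp10, named after its values were seen, had 17, 26 and 44 counts in the MoS2 libraries and 275, 295 and 304 in the PBS libraries (log2 fold change -2.50). Aim2, the sensor of cytosolic DNA, was the 1 gene called higher, at 233 ± 8.21 CPM with MoS2 and 138 ± 5.22 CPM with PBS. Its log2 fold change of 0.76 was -0.016 and not called with library totals. Nlrc3, at -0.17, was not called (edgeR adjusted p = 0.133), and with library totals it was -0.94 and called lower. Naip1 had 15 counts in all MoS2 libraries and 22 in all PBS libraries, Nlrp12 had 0 and 2, Nlrp9b had 0 and 3, and Mefv and Nlrp6 had 0 in every library.

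Of the triggers that act upstream of NLRP3, 5 of 9 tested genes were called lower and 2 higher (9 and 0 by library totals). The list's median was -0.66. P2rx7, the ATP-gated channel that lets potassium out, had 10.1, 8.19 and 7.75 CPM in the MoS2 libraries and 45.7, 50.7 and 52.5 CPM in the PBS libraries. The 2 groups of libraries lie far apart. The potassium channel gene Kcnk6, also known as TWIK2, had a log2 fold change of -1.30 ± 0.10, and P2rx4 one of -0.66 ± 0.08. Txnip, the thioredoxin-binding protein that can bind NLRP3, had a log2 fold change of 0.64 ± 0.06, which became -0.13 with library totals.

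The cytokine and alarmin cargo was the list with the highest median, 3.03. All 4 tested genes were called higher (3 higher and 1 lower with library totals). Il1b and Il1a, with at most 10 counts in any PBS library, passed the low-count filter only through the MoS2 libraries. The list's median and its count of calls are therefore not independent of the rise of these genes. Il1b, a main substrate of caspase-1, had 108, 104 and 136 counts in the MoS2 libraries and 10, 0 and 1 in the PBS libraries. Its change of 5.75 ± 0.46 on the log2 scale (SE, edgeR adjusted p = 4.3e-08) rests on few PBS counts and was 8.25 without PBS replicate 1. Il1a had 46, 73 and 49 counts with MoS2 and 5, 0 and 4 with PBS (log2 fold change 4.98 ± 0.51). Il18, which caspase-1 also matures, had 19.1 ± 0.790 CPM with MoS2 and 9.03 ± 0.641 CPM with PBS, a log2 fold change of 1.08 that was 0.39 with the gene length trend removed. The alarmin gene Hmgb1 had 0.25 ± 0.08, and -0.52 with library totals. Il33 had 0 counts.

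Among other caspases, gasdermins and genes of membrane rupture or repair, 4 of 8 tested genes were called higher and 0 lower (2 and 6 by library totals). The list's median was 0.16. Chmp4b, a subunit of the ESCRT-III complex that can remove gasdermin pores, had 503 ± 47.8 CPM with MoS2 and 164 ± 13.4 CPM with PBS (log2 fold change 1.62, edgeR adjusted p = 4.1e-10). Chmp3 and Vps4a, also of the ESCRT machinery, had log2 fold changes of 0.29 ± 0.08 and 0.27 ± 0.08, which turned to -0.48 and -0.50 with library totals. Counts in all MoS2 libraries and in all PBS libraries were 8 and 5 for Gsdma, 3 and 0 for Casp12 and 2 and 0 for Ninj2, and Gsdmc had 0.

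Some guanylate-binding proteins help expose bacterial membranes to the product of Casp4. Their list also holds the related GTPases Irgm1, Irgm2 and Igtp, to which this role is not ascribed here. Of 5 tested genes 1 was called higher and 3 lower, and the counts were the same by library totals. With no low-count filter 2 were called higher. The list's median was -0.48. Gbp3 had 1.78 ± 0.582 CPM with MoS2 and 0.278 ± 0.0533 CPM with PBS (log2 fold change 2.65 ± 0.43), and Irgm2, Igtp and Irgm1 had log2 fold changes of -1.27, -0.66 and -0.48. Counts in all MoS2 and in all PBS libraries were 28 and 12 for Gbp2, 9 and 2 for Gbp5, 7 and 13 for Gbp4 and 0 and 8 for Gbp6. For Gbp2 the ratio of levels was 4.14, with a 95% counting interval of 2.04 to 8.94, and its groups did not overlap.

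Modifiers and inhibitors of inflammasome proteins had 5 genes called higher and 2 lower of 11 tested (2 and 5 by library totals). The list's median was 0.15. The phosphatase gene Ptpn22, whose product dephosphorylates NLRP3, had 166 ± 5.96 CPM with MoS2 and 63.3 ± 4.74 CPM with PBS (log2 fold change 1.39). Cflar, an inhibitor of caspase-8, had 1.23 ± 0.08. Dpp8, the gene of a dipeptidase that restrains NLRP1B, fell to 73.1 ± 5.05 CPM with MoS2, against 166 ± 14.9 CPM with PBS. Dpp9, whose product also restrains NLRP1B, was named after its values were seen. Its log2 fold change of 0.15 ± 0.09 was not called (edgeR adjusted p = 0.120). With library totals Dpp9 was at -0.62 and called lower. Pstpip1 had 0.67 ± 0.07, and -0.10 without a call with library totals. Serpinb1a had 27 counts with MoS2 and 3 with PBS, a ratio of levels of 15.96 with a 95% counting interval of 4.91 to 82.2, and its groups did not overlap. Trim31 had 0.

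Of the partners in necroptosis and death complexes, 3 of 5 tested genes were called higher and 2 lower (2 and 2 by library totals). The list's median was 0.76. Mlkl, the executioner of necroptosis, had 54.1 ± 5.23 CPM with MoS2 and 9.25 ± 1.36 CPM with PBS (log2 fold change 2.55, edgeR adjusted p = 1.4e-10). Zbp1, a sensor of Z-form nucleic acids, had 26.2 ± 2.42 CPM with MoS2 and 3.34 ± 1.43 CPM with PBS. Ripk1, the kinase at the head of several death complexes, fell to 11.4 ± 1.21 CPM with MoS2, against 45.3 ± 1.71 CPM with PBS. The adaptor gene Fadd had 1.73 ± 0.928 CPM with MoS2 and 15.1 ± 0.618 CPM with PBS.

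Of the transcription factors known to act on member genes, 5 of 8 tested were called lower and 2 higher (8 and 0 by library totals). The list's median was -0.73. Rela, the NF-kB subunit p65, had 43.2 ± 2.35 CPM with MoS2 and 86.3 ± 3.43 CPM with PBS (log2 fold change -0.996). Gfi1, a repressor of Nlrp3, had 4, 6 and 4 counts with MoS2 and 117, 104 and 99 with PBS. Nfe2l2, the NRF2 gene, and Irf1 had log2 fold changes of -0.77 ± 0.07 and -1.40 ± 0.16. Irf2, which drives Gsdmd, and Irf8, which drives Naip genes, were named after their values were seen. Irf2 had a log2 fold change of -0.68 ± 0.11, and Irf8 one of 0.41 ± 0.06 that turned to -0.36 with library totals. Ahr had 1 count with MoS2 and 0 with PBS.

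**Figure D4:**
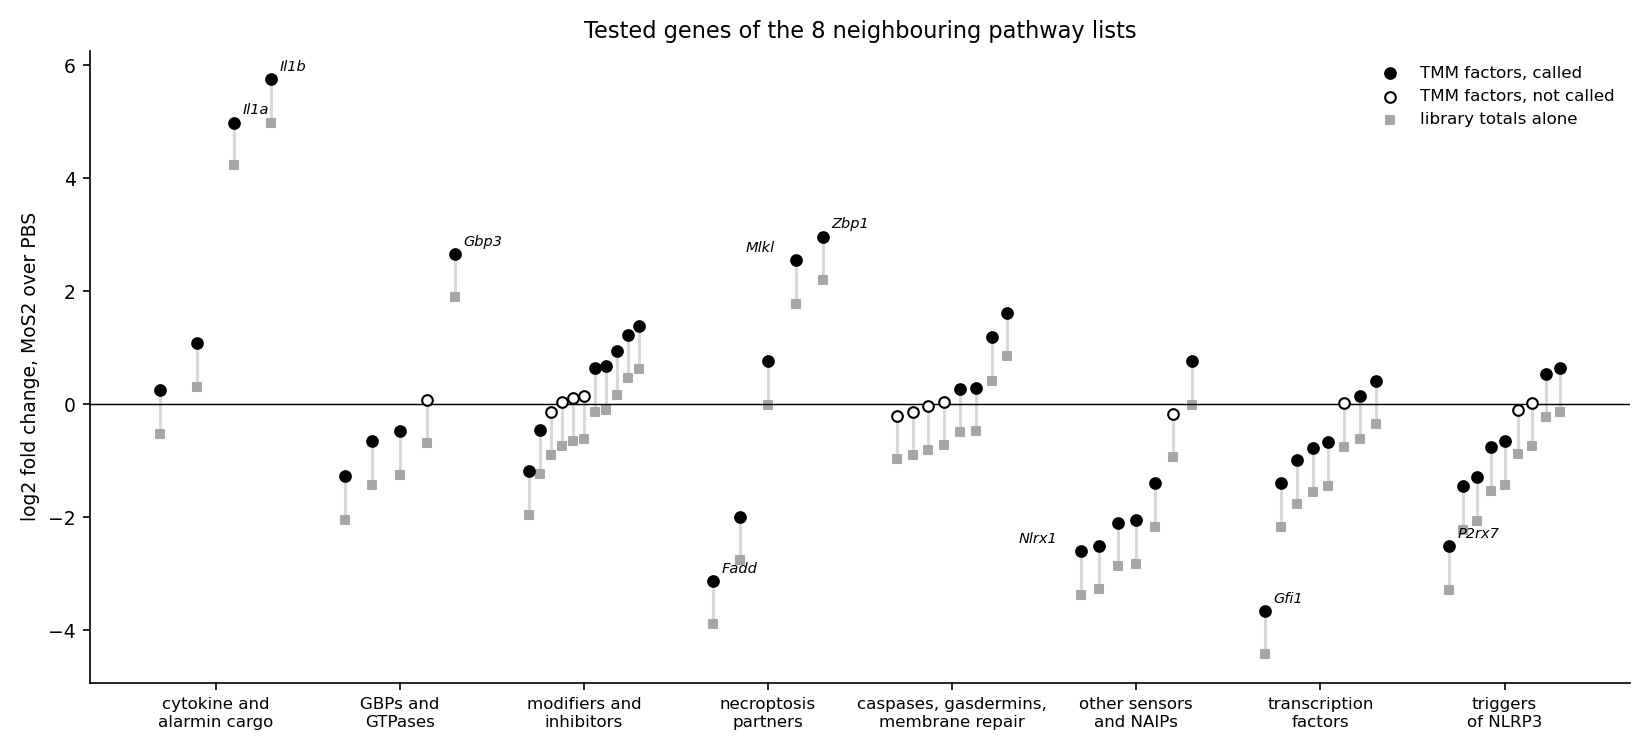
Log2 fold change (MoS2 over PBS) of the 57 tested genes in the 8 neighbouring lists, with filled circles for genes called with TMM factors, open circles for genes not called, and grey squares for the same gene with library totals alone. Il1b and Il1a lie highest, at 5.75 and 4.98, and Gfi1 and Fadd lowest, at -3.66 and -3.13; library totals move every gene down.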

How the data were processed

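The deposited values are raw read counts per gene, from 150-base paired reads of libraries made with a NEBNext Ultra kit, per the labels' protocols. The submitters' processing notes name 3 tools: featureCounts at version 1.6.1, HISAT2 at 2.1.0 and fastp at 0.20.0. They name a human build, but all 55401 identifiers are mouse genes, and 54349, with all members except Casp1, have the same version and coordinates in GENCODE M21 (GRCm38). The other deposited column used is exon length in bases. The strand setting and the handling of multi-mapping reads are unknown here.

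Changes were tested with edgeR 4.0.16 (R 4.3.3) across 12972 genes passing its default low-count filter, with TMM factors and treatment as the only term. The SE was derived from the fold change and the F statistic, and 95% intervals span 1.96 SE to each side. Alternatives were RLE and upper-quartile factors, library totals, no filter, a 1 CPM filter, DESeq2 1.42.0, limma-voom (3.58.1), a replicate term, an adjusted p under 0.01, removal of a gene length trend, and leaving out each library. On simulated counts in which most genes did not change, the test recovered 45 of 50 genes changed 1.5-fold and 49 of 50 changed 2-fold. Those counts had no shift in composition like that of the real libraries, so the check does not cover the choice of scaling.

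Members, lists and rules were chosen with earlier results of these data known. All 10 members are named, with the 4 tested genes of smallest adjusted p in each list and its genes under the filter. Nlrp1a, Nlrp10, Nlrc3, Dpp9, Irf2 and Irf8 were added after their values were seen. A few genes that these rules would name are not reported here. Of 118 entries in all lists, markers included, 117 matched a gene. Libraries of a group differed by more than sampling noise (chi-square per degree of freedom at least 3.16).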

Additional observations from a re-analysis of the deposited data

How the results depend on the processing

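With library totals alone the log2 fold change of Casp1 was -0.19 and that of Gsdmd -0.68, both opposite in sign to the TMM values. The counts of called genes in the 8 lists were then 10 higher and 40 lower. Among list genes called under either scaling, library totals turned the sign of Aim2 (-0.016), Chmp3 (-0.48), Vps4a (-0.50), Hmgb1 (-0.52), Txnip (-0.13), Syk (-0.24), Mapk9 (-0.75), Brcc3 (-0.14), Mark4 (-0.66), Dpp9 (-0.62), Pstpip1 (-0.10), Ripk3 (-0.014), Irf8 (-0.36) and Nfkb1 (-0.62). Over all tested genes it gave 2334 higher and 8786 lower, against 4964 and 5502 with TMM factors. With the trend on gene length removed, Naip5 had -0.25 and was not called, and Vps4b (0.30) and Mapk8 (0.27) turned positive and were called. Nlrc3 (0.12), Gsdme (0.17) and Hdac6 (0.16) also turned positive, without a call in either setting. The cause was not tested. The median of all genes shifted by -0.13 with upper-quartile factors and by 0.19 with the length trend removed. Leaving out each library in turn moved Nlrp3 between -3.93 and -3.54, Nlrc4 between -1.89 and -1.36, Nlrp1b between -1.76 and -1.51, Casp1 between 0.50 and 0.66 and Ninj1 between 1.15 and 1.27, and the members called stayed at 5 lower and 3 higher.

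The replicate block, a term for the replicate number, gave 10203 called genes against 10466 without it, and called the same numbers of members, 5 lower and 3 higher. Deviations of same-numbered libraries from their group means correlated at -0.02, -0.01 and -0.14. Those of libraries with different numbers correlated at -0.12 to 0.15. No shared effect of the replicate number was seen, but these values cannot tell whether same-numbered libraries were handled together. At this depth a difference in Pycard was not detectable. Other genes below the filter were described by their counts.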
